A study of Mus musculus with 11 samples.

Results

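ABC efflux transporters are membrane pumps that use ATP to move lipophilic compounds, drugs and conjugated anions out of cells, and they are described here in cells of the mouse brain vasculature. They were taken as the 8 genes Abcb1a, Abcb1b, Abcb4, Abcg2, Abcc1, Abcc4, Abcc5 and Abcc6, found by symbol among the 32287 genes listed in the deposited count matrices, and all 8 were present. The genes were kept out of the gene set used to cluster the cells, so the groups of cells compared below were not drawn with them.

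The series compared 2 transgenic mouse lines in a study of CADASIL, an inherited small vessel disease caused by variants of NOTCH3. R182C-TgN3 mice (labelled TgN3 R182C, line Tg350, n = 6) carried a human NOTCH3 transgene with the R182C substitution, and WT-TgN3 control mice (labelled TgN3, line Tg100, n = 5) carried the wild-type human NOTCH3 transgene, so that both groups held human NOTCH3 beside the endogenous mouse Notch3 gene. Brains of untreated females and males were dissociated to vessel fragments, enriched with CD31 antibodies and redigested to single cells for 10x Genomics 3' libraries, with 1 library per mouse. R182C-TgN3 mice 1 to 3 and control mice 4 and 5 were 9 months old, R182C-TgN3 mice 4 to 6 and control mice 1 to 3 were 6 months old, and no preparation batch in the labels held both ages, so age and batch cannot be told apart. Human NOTCH3, expressed in mural cells, was detected in both lines, at 202 to 359 CPM (counts-per-million of the UMIs of these cells) in the smooth muscle cells of R182C-TgN3 mice and 16.0 to 71.8 CPM in those of control mice, and at 567 to 1583 CPM and 245 to 410.5 CPM in their pericytes.

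At the blood-brain barrier, P-glycoprotein and BCRP sit in the luminal membrane of endothelial cells and return a wide range of drugs and toxins to the blood. Rodents have 2 genes for P-glycoprotein, Abcb1a and Abcb1b, where humans have 1, and Abcg2 encodes BCRP. The Abcc genes encode multidrug resistance proteins: Abcc4 (MRP4) exports cyclic nucleotides, nucleoside analogues and conjugated anions, Abcc1 (MRP1) exports glutathione conjugates and leukotriene C4, Abcc5 (MRP5) exports cyclic nucleotides, and Abcc6 (MRP6) mediates release of ATP and is the gene mutated in pseudoxanthoma elasticum. Abcb4 encodes a phosphatidylcholine floppase best known from the bile canaliculus of liver.

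Abcb1a, Abcb1b and Abcb4 follow each other on chromosome 5 on the same strand and are close relatives, yet Abcb1a had its highest level in capillary EC and Abcb1b and Abcb4 had theirs in microglia (below), and the sequence at their starts is therefore shown side by side. In the GENCODE annotation of mm10, Abcb1a spans chr5:8660077-8748575, Abcb1b chr5:8798147-8866315 and Abcb4 chr5:8893717-8959231. The other genes lie at chr6:58584523-58695676 (Abcg2), chr16:14361558-14475737 (Abcc1), chr14:118482692-118706219 (Abcc4, minus strand), chr16:20331303-20426394 (Abcc5, minus strand) and chr7:45967555-46030302 (Abcc6, minus strand). RefSeq windows on GRCm38.p6, the assembly behind mm10, run from 250 bases before to 50 bases after a transcription start and were given for 6 of the 8 genes. The windows of Abcb1a (chr5:8566841-8567140), Abcb1b (chr5:8797897-8798196) and Abcb4 (chr5:8893471-8893770), all on the plus strand, are written with motif matches on either strand in capitals. The motifs searched were the CCAAT box by the letters of its name, the GC box by the letters GGGCGG, the core of the xenobiotic response element by the letters GCGTG and the core of the site of PU.1, a myeloid transcription factor, by the letters GAGGAAGT.
Abcb1a: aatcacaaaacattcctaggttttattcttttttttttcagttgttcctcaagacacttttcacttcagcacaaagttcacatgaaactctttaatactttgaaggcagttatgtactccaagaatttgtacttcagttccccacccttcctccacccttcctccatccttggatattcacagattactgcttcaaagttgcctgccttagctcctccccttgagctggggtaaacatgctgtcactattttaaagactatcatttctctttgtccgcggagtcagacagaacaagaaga
Abcb1b: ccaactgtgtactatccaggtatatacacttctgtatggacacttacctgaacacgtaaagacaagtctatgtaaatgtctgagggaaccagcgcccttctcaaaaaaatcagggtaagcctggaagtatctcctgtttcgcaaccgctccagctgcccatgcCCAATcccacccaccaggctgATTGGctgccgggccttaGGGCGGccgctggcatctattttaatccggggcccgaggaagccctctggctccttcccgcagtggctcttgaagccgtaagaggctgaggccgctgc
Abcb4: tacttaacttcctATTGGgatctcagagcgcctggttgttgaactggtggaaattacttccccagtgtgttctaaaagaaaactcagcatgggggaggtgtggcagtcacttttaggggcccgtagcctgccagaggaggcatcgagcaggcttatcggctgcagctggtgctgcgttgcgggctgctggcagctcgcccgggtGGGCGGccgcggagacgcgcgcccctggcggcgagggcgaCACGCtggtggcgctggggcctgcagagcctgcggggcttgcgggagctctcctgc

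The Abcb1a window held none of the 4 motifs and had a GC content of 40.3%, against a median of 52.7% over 32851 windows of this length, and it lies 92986 bases upstream of the GENCODE gene start, so it belongs to a distal RefSeq start. The Abcb1b window (GC 55%) held a GC box at −48 and CCAAT boxes at −87 and −66, counted from the start. The Abcb4 window (GC 64%) held a GC box at −46, a CCAAT box at −237 and the xenobiotic core at −6. Of all windows, 35.7% held a GC box, 37.4% a CCAAT box and 32.4% the xenobiotic core, so each match is a common one and is given as a description. The letters of the PU.1 core, held by 3.2% of all windows, were not in these 3.

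The files listed 66658 barcodes, of which 61625 passed the filters used here and 58353 remained after 3272 likely doublets were removed (2898 to 9056 per mouse, with median depths per mouse of 3546 to 7682 unique molecular identifiers, UMIs, per cell). Cell classes were rebuilt by clustering and named from marker genes, so that each name below stands for an X-like cluster or set of clusters: 23361 capillary, 7041 arterial, 2734 venous and 1550 fenestrated endothelial cells (EC), 2115 smooth muscle cells (SMC), 696 pericytes (PC), 660 choroid plexus epithelial cells and 12028 microglia. A further 3585 cells stayed unnamed and 3140 endothelial cells had no subtype. No defining marker of any class was at 0 in every mouse of its own class, and the summed endothelial markers reached 16985 CPM in capillary EC, the SMC markers 30812 CPM in SMC, the PC markers 20041 CPM in PC and the microglial markers 13372 CPM in microglia. Pairs of libraries shared 5 to 350 barcodes, most between R182C-TgN3 mice 4 and 5, and 1.41% to 9.70% of the cells of a mouse carried a barcode listed in another library. For each mouse the UMIs of a class were summed and a gene's level is given as CPM of that sum. Since the libraries read 3' ends, levels are compared between cells for 1 gene and not between genes.

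Abcb1a, the P-glycoprotein gene of brain endothelium, had its highest level in capillary EC, and its level along the vessel tree was capillary, venous, arterial and then, far lower, fenestrated EC. In capillary EC it measured 1563, 1675, 1677, 1703, 1981 and 1375 CPM in R182C-TgN3 mice 1 to 6 and 1733, 1524, 1796, 1752 and 1648 CPM in control mice 1 to 5, a mean of 1675 ± 156 CPM (SD, n = 11). The 2 genotypes overlapped throughout, and R182C-TgN3 mice 5 and 6 held both ends of the range. The mean was 1563 ± 162 CPM in venous EC and 1243 ± 141 CPM in arterial EC, with capillary above venous in 10 of 11 mice and venous above arterial in 11 of 11, although the ranges of neighbouring classes overlapped. In fenestrated EC, which line vessels outside the barrier such as those of the choroid plexus, the level was 125 ± 24.6 CPM, from 82.8 to 157 CPM, well apart from the barrier classes.

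Abcg2, which encodes BCRP, fell along the same path with less overlap. It measured 1071, 825, 881, 1002, 1144 and 868 CPM in the capillary EC of R182C-TgN3 mice 1 to 6 and 1027, 945, 1011, 849 and 910 CPM in those of control mice 1 to 5. The means were 958 ± 101 CPM in capillary, 824 ± 91.7 CPM in venous, 535 ± 52.8 CPM in arterial and 299 ± 34.5 CPM in fenestrated EC (SD, n = 11 each). Each step held in 11 of 11 mice, and the ranges of venous, arterial and fenestrated EC did not overlap.

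The MRP genes of the endothelium followed other paths. Abcc4 had similar means in venous (626 ± 96.4 CPM), capillary (585 ± 98.9 CPM) and arterial EC (528 ± 108 CPM), with venous above capillary in 8 of 11 mice, capillary above arterial in 10 of 11 and all 3 ranges overlapping, and was lower in fenestrated EC (181 ± 35.2 CPM). Abcc6 was highest in capillary EC (42.8 ± 5.16 CPM, 35.4 to 52.3), then arterial (35.6 ± 4.92 CPM) and venous EC (21.3 ± 4.79 CPM). Fenestrated EC held 6 Abcc6 UMIs in all, and 7 of 11 mice had none. Their pooled level was 0.588 CPM, with an exact Poisson 95% interval of 0.216 to 1.28 CPM that covers counting error alone.

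The other 4 genes were not led by endothelium. Abcb1b, the sister gene of Abcb1a, measured 68.8, 72.0, 57.2, 63.9, 85.2 and 57.9 CPM in the microglia of R182C-TgN3 mice 1 to 6 and 76.2, 70.8, 62.0, 93.5 and 62.6 CPM in those of control mice 1 to 5. Its next level was 12.8 ± 2.40 CPM in arterial EC (10.1 to 17.2), outside the microglial range, and its capillary level was 4.41 ± 1.03 CPM. Abcb4 was likewise apart in microglia, at 50.6 ± 8.66 CPM (39.5 to 64.7), against means of 0.999 to 3.18 CPM in the other 7 classes. Abcc5 was spread over all classes, from 92.8 ± 11.2 CPM in microglia and 72.9 ± 18.9 CPM in PC to 34.5 ± 3.52 CPM in capillary EC and 27.7 CPM in choroid plexus. Abcc1 ran from 33.2 ± 6.17 CPM in microglia and 26.5 ± 7.38 CPM in choroid plexus (n = 5) down to 7.49 ± 0.926 CPM in capillary EC. Fenestrated EC (22.7 ± 4.45 CPM) and PC (22.1 ± 10.1 CPM) lay between. With all classes ordered by mean, the ranges of neighbouring classes overlapped for both genes. The ranges of PC and capillary EC, which are not neighbours in that order, did not overlap for either gene, with PC higher in 11 of 11 mice.

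**Figure D1:**
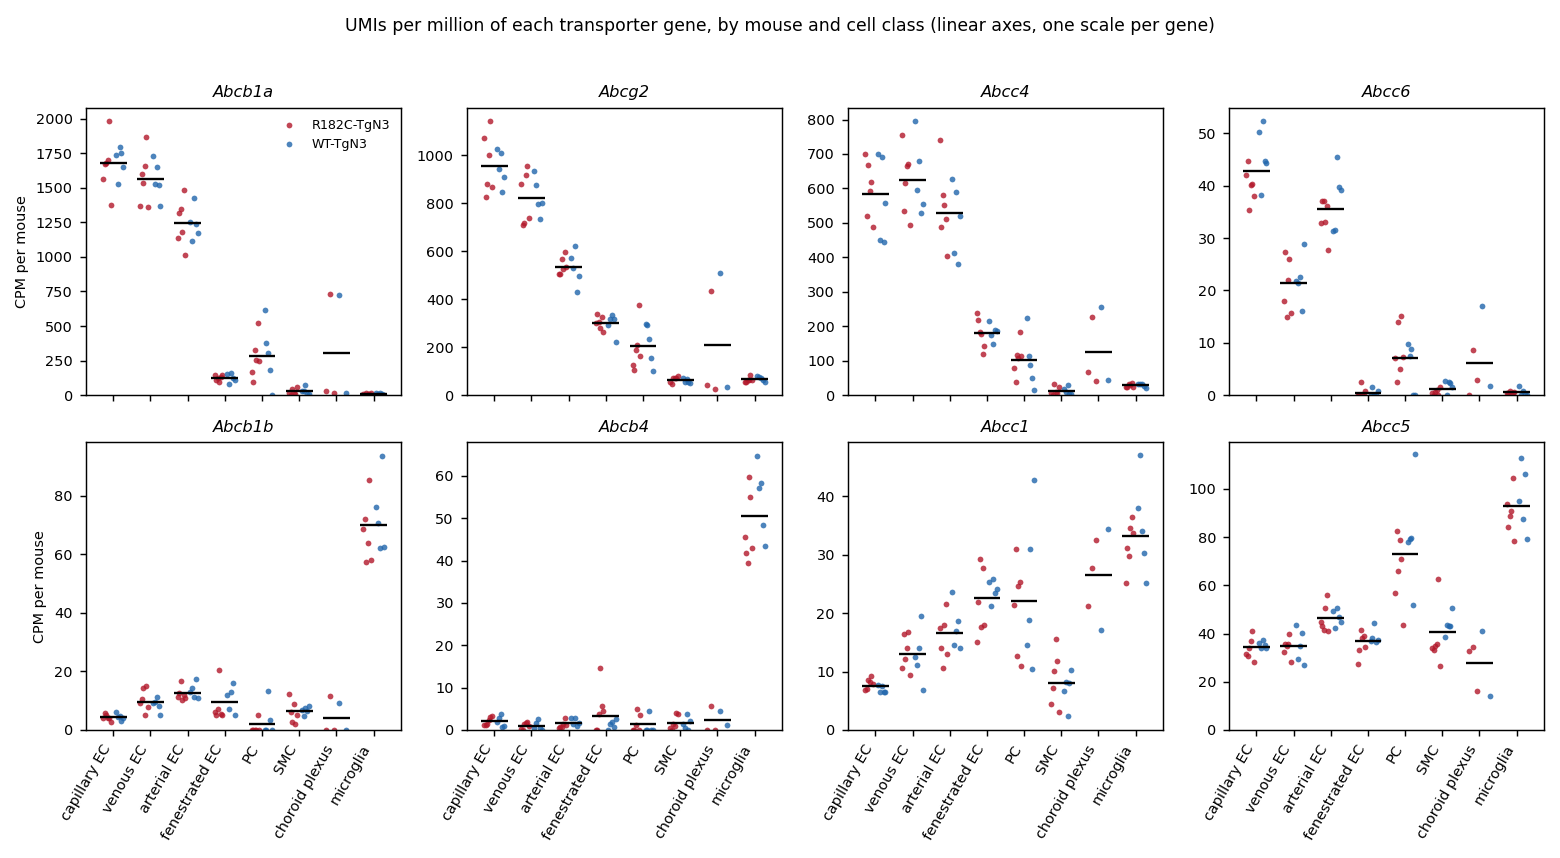
Level of each of the 8 genes (CPM, linear axis) by cell class, with 1 point per mouse (red, R182C-TgN3; blue, WT-TgN3) and a black bar at the mean. Abcb1a and Abcg2 peak in capillary EC (means of 1675 and 958 CPM) and drop in fenestrated EC, Abcb1b and Abcb4 stand out in microglia (70.0 and 50.6 CPM), and red and blue points are mixed in the classes shown.

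In single cells, the shares of EC with a UMI of Abcb1a or Abcg2 followed the order of their levels. After each cell was thinned to 2000 UMIs, which left out 1313 of 23361 capillary EC, Abcb1a was detected in 93.9% ± 2.07 of capillary EC, 93.2% of venous, 86.4% of arterial and 16.4% of fenestrated EC, against 1.64% of microglia, which serve here as the background for this gene. Abcg2 was detected in 81.9% of capillary, 79.9% of venous, 63.6% of arterial and 42.2% of fenestrated EC and in 11.1% of microglia. Unthinned, Abcb1a was found in 98.2% of capillary EC and 4.08% of microglia, at median depths of 4632 and 5466 UMIs. In microglia, 11.3% ± 1.56 of thinned cells held an Abcb1b UMI and 8.88% ± 1.84 an Abcb4 UMI, against 0.662% and 0.473% of capillary EC.

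The classes were then compared with edgeR's quasi-likelihood test on the summed UMIs, with the mouse as a block, and a gene was called at a Benjamini-Hochberg adjusted p below 0.05 over all genes tested. With 11 mice and deep sums these contrasts called large shares of all genes, so the number of transporters called says little by itself and the sizes and directions carry the description. In arterial EC, 7 of the 8 genes differed from capillary EC (3 higher, 4 lower), where 59% of all 11166 genes tested were called. Abcg2 was lower by a log2 difference of −0.83 ± 0.035 (SE, adjusted p = 1.85e-15), Abcb1a by −0.42 ± 0.025 (9.19e-13), Abcc6 by −0.25 ± 0.050 (0.000168) and Abcc4 by −0.14 ± 0.030 (0.000302). With doublets kept the Abcc4 difference was −0.016 and lost its call (adjusted p = 0.683). Abcb1b was higher by 1.60 ± 0.113 (2.44e-11), Abcc1 by 1.14 ± 0.096 (4.91e-10) and Abcc5 by 0.44 ± 0.036 (3.68e-10). Arterial endothelium thus had less of the luminal pumps Abcb1a and Abcg2 and more Abcb1b. Abcb4, near 2 CPM in both classes, measured −0.47 (adjusted p = 0.0731), and it passed without control mouse 1 (−0.57, 0.0351), 4 (0.0476) or 5 (0.0239). The median log2 difference of the 8 genes was −0.20, beside −0.01 over all genes.

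Venous EC stayed closer to capillary EC for the main pumps. Of 7 genes tested, 6 were called (3 higher, 3 lower), where 51.5% of all genes were. Abcc6 was lower by −1.07 ± 0.072 (adjusted p = 1.75e-12), a larger step than in arterial EC, and Abcg2 by −0.21 ± 0.031 (2.73e-06). Abcb1b was higher by 1.18 ± 0.126 (1.2e-08) and Abcc1 by 0.80 ± 0.115 (1.57e-06). The venous differences of Abcb1a, −0.09 ± 0.031 (0.021), and Abcc4, 0.11 ± 0.040 (0.0171), were small. The first lost its call without R182C-TgN3 mouse 3 (−0.07, 0.0985) or control mouse 4 (−0.07, 0.0800) and the second without control mouse 2 (0.09, 0.0526). The Abcb1a call was also lost with all genes kept, up to 20% mitochondrial UMIs, shared barcodes left out or each genotype alone (0.0720 to 0.215). The Abcc4 call was also lost with no filter on low counts, 1000 genes per barcode, a marker gate per cell or R182C-TgN3 mice alone (0.0737 to 0.293). With doublets kept the signs of Abcb1a, Abcg2 and Abcc4 turned (0.05, 0.04 and −0.05, none called). Abcc5 did not pass in venous EC (0.02, 95% interval −0.09 to 0.14). The medians were 0.02 over the genes tested and −0.02 over all genes.

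Fenestrated EC had the lowest endothelial levels of the barrier pumps. Of 7 genes tested, 6 were called (2 higher, 4 lower), where 55.8% of all genes were, with medians of −1.63 and −0.01. Abcb1a was lower than in capillary EC by −3.73 ± 0.080 (adjusted p = 2.7e-23), Abcg2 by −1.65 ± 0.064 (6.54e-18) and Abcc4 by −1.63 ± 0.078 (5.76e-16). Abcc6 was lower by −6.11 (2.93e-17), with the 6 UMIs given above behind the fenestrated side. Abcc1 was higher by 1.63 ± 0.123 (9.31e-12) and Abcb1b by 1.02 ± 0.235 (0.000619), and Abcc5 did not pass (0.13, 0.165). The fenestrated cells were endothelial by their summed endothelial markers (88.3% of the capillary level) but held Cldn5, the claudin of barrier tight junctions, at 1.74% of it, and their Abcb1a stood at 7.49%, their Abcg2 at 31.5% and their Abcc4 at 31.7% of the capillary level. The pumps were therefore not lowered by the same factor: in proportion to capillary EC, fenestrated EC held more Abcg2 and Abcc4 than Abcb1a.

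**Figure D2:**
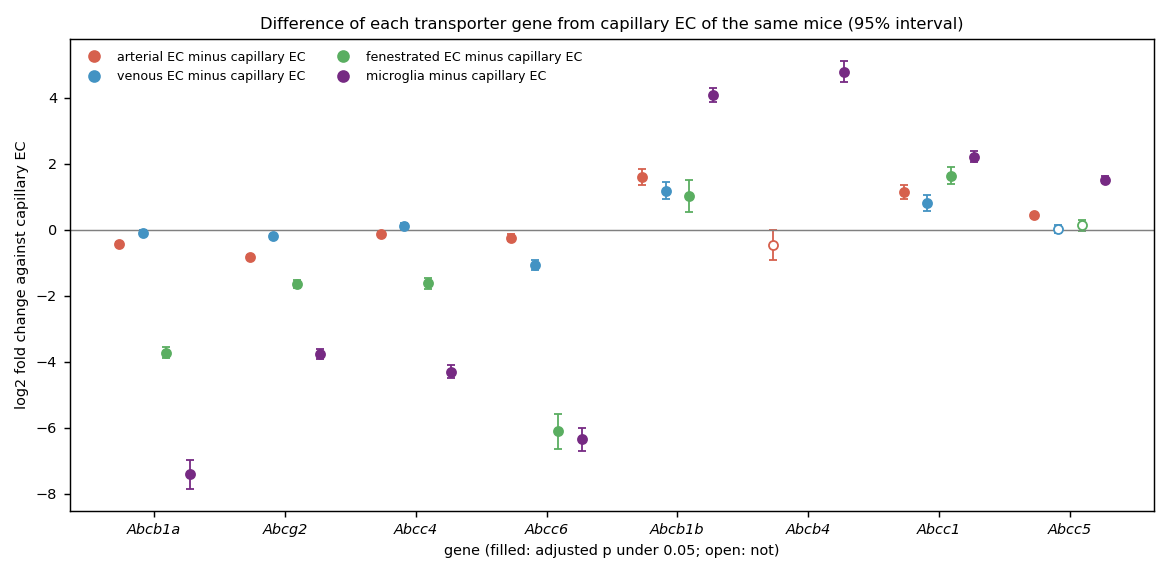
Log2 difference of each gene from capillary EC in arterial, venous and fenestrated EC and in microglia, with 95% intervals (filled points, adjusted p below 0.05). Abcb1a and Abcg2 are lower than in capillary EC in all 4 classes (−0.42, −0.09, −3.73 and −7.42 for Abcb1a), whereas Abcb1b and Abcc1 are higher in all 4.

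Within the arterial class, the levels formed a graded series over its 3 clusters, each present in all 11 mice. The first (4119 cells) was led by Gkn3 and Bmx, the second (2353 cells) by Pi16 and S100a4, and the third (569 cells) by the matrix genes Cytl1, Fbln5 and Eln, with median depths of 4288, 10024 and 5425 UMIs. Abcg2 stepped from 724 ± 63.6 to 431 ± 38.9 and 214 ± 53.9 CPM, in this order in 11 of 11 mice and with no overlap between clusters. Abcb1a stepped from 1487 ± 167 to 1123 ± 130 and 832 ± 144 CPM and Abcb1b, in the opposite direction, from 5.91 to 15.1 and 32.8 CPM, both in 11 of 11 mice. The third cluster therefore held the least of the barrier pumps and the most Abcb1b of the arterial clusters. Abcc6 fell from 41.4 and 34.7 CPM to 13.2 CPM in the third cluster, with the first above the third in 11 of 11 mice and above the second in 9 of 11. Abcc5 fell likewise, from 50.8 and 45.2 CPM to 30.7 CPM, with the same counts of mice for these pairs. Abcc4 did not follow the series, with 509, 586 and 271 CPM. These levels are descriptions, and the differences between clusters were not tested.

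Other markers moved along these clusters. The summed capillary markers went from 3628 to 1945 and 411 CPM and the arterial markers from 2994 to 4945 and 14771 CPM, whereas the endothelial markers stayed near one another (19716, 18040 and 16595 CPM). The SMC markers rose from 116 to 193 and 369 CPM, against 30812 CPM in SMC, and the fibroblast markers from 2.55 to 38.6 CPM. The microglial markers were at 560, 289 and 453 CPM. The part of these in the levels was not tested.

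**Figure D3:**
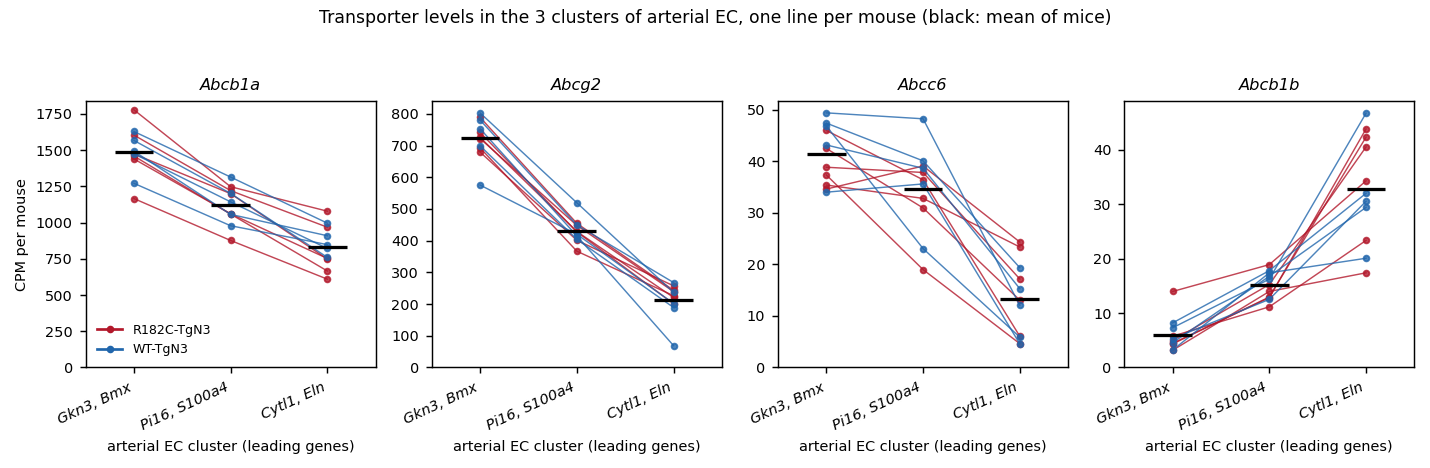
Levels (CPM) of Abcb1a, Abcg2, Abcc6 and Abcb1b in the 3 arterial clusters, with 1 line per mouse. In each mouse Abcb1a and Abcg2 go down and Abcb1b goes up from the Gkn3 cluster to the Eln cluster.

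The 7 capillary clusters differed as well. Their mean levels spanned 1330 to 2159 CPM for Abcb1a, 676 to 1164 CPM for Abcg2, 433 to 1102 CPM for Abcc4 and 27.4 to 96.1 CPM for Abcc6, or 1.62-fold, 1.72-fold, 2.55-fold and 3.51-fold. A single cluster of 1190 cells, led by Gm26917, Taco1 and Fgf13, held the highest Abcb1a, Abcc4, Abcc6, Abcc5 (72.5 CPM) and Abcc1 (12.9 CPM) together. Its median depth, 2689.5 UMIs, was below that of the class (4632), and the part of depth in its levels was not tested.

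Outside the endothelium, part of the signal of the endothelial pumps moved with endothelial markers. In PC, the summed endothelial markers stood at 20.4% of their capillary level (3.25% to 38.3% over mice), and Abcb1a stood at 16.6%, Abcg2 at 20.9%, Abcc4 at 17.3% and Abcc6 at 17.0%. The Abcb1a percentage was above that of the markers in 1 of 11 mice. Abcb1a in PC measured 167, 95.5, 326, 252, 521 and 247 CPM in R182C-TgN3 mice 1 to 6 and 614, 380, 301, 183 and 0 CPM in control mice 1 to 5. It was thus not detected in the mouse that stood at 3.25% of endothelial markers, whose PC gave the fewest UMIs. In this mouse 3 UMIs would amount to 42.8 CPM. The PC difference from capillary EC (6 of 7 genes called, 50.3% of all genes, medians −2.36 and −0.03) was −2.77 ± 0.226 for Abcb1a, −2.36 ± 0.139 for Abcg2, −2.63 ± 0.171 for Abcc4 and −2.45 ± 0.246 for Abcc6 (adjusted p = 1.32e-10, 2.88e-13, 1.99e-12 and 5.75e-09), and how much of the remaining PC level came from endothelial RNA was not tested.

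Abcc1 and Abcc5 behaved otherwise in PC. They stood at 302% and 212% of their capillary levels, above the marker percentage in 11 of 11 mice, and were higher than in capillary EC by 1.34 ± 0.240 and 0.95 ± 0.117 (adjusted p = 4.23e-05 and 1.74e-07). Abcb1b, with 5 UMIs in all PC, measured −1.54 (0.0504) and passed without R182C-TgN3 mouse 5 (0.0359), control mouse 3 (−2.76, 0.00307) or control mouse 4 (0.0362).

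SMC held lower levels than PC of all 4 genes that could be tested, where 55.6% of all genes were called (medians −2.07 and −0.01). Abcb1a differed by −3.09 ± 0.249, Abcc4 by −2.81 ± 0.259, Abcg2 by −1.33 ± 0.134 and Abcc5 by −0.55 ± 0.121 (adjusted p = 4.14e-10, 3.85e-09, 1.69e-08 and 0.000506). Endothelial markers were at 1.99% of the capillary level in SMC, beside 20.4% in PC, and their part in this difference was not tested. Abcb1a (1.69%) and Abcc4 (2.03%) stood near that value in SMC, but Abcg2 stood at 6.64% (5.21% to 9.20%), above the marker percentage in 11 of 11 mice, and Abcc5 at 117%. The mean Abcg2 level was 63.4 CPM in SMC and 66.6 CPM in microglia. The source of the Abcg2 UMIs in SMC was not tested.

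Choroid plexus cells reached 20 per mouse in 5 mice, and these fell apart. R182C-TgN3 mice 2, 4 and 6 gave 21, 285 and 27 of the cells and control mice 1 and 5 gave 224 and 43. Abcb1a measured 28.2, 728 and 17.8 CPM in R182C-TgN3 mice 2, 4 and 6 and 722 and 18.0 CPM in control mice 1 and 5, and Abcg2 42.3, 436 and 26.6 CPM and 511 and 32.1 CPM in the same order. The high mice, 1 of each genotype, were those with endothelial markers at 56.6% and 55.7% of the capillary level, against 1.23% to 4.48% in the others, and the Abcb1a percentage was above the marker percentage in 0 of 5. Abcc1 was even over the same mice (21.2, 27.6, 32.6, 17.0 and 34.3 CPM) and above the marker percentage in 5 of 5. Abcc1 was higher than in capillary EC by 2.14 ± 0.278 (adjusted p = 0.00152, n = 5), and 5 of 7 genes were called (1 higher, 4 lower), where 40.3% of all genes were, with medians of −2.28 and −0.11. Of the lower ones, Abcb1a (−3.98 ± 1.12, 0.029) and Abcg2 (−2.95 ± 0.741, 0.0199) lost their calls without R182C-TgN3 mouse 2 (0.103 and 0.0780), R182C-TgN3 mouse 6 (0.0976 and 0.0699) or control mouse 5 (0.0775 and 0.0579), which leaves 2 mice with high and 2 with low endothelial markers. Abcc4 (−2.28 ± 0.387, 0.00486) and Abcc6 (−2.70 ± 0.499, 0.00677) were lower as well. Abcc4 measured 65.8, 227 and 41.4 CPM in R182C-TgN3 mice 2, 4 and 6. In control mice 1 and 5 it measured 254 and 43.9 CPM. It was thus also higher in the mice with high endothelial markers. The Abcc4 percentage was above the marker percentage in 3 of 5 mice, those with low endothelial markers.

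**Figure D4:**
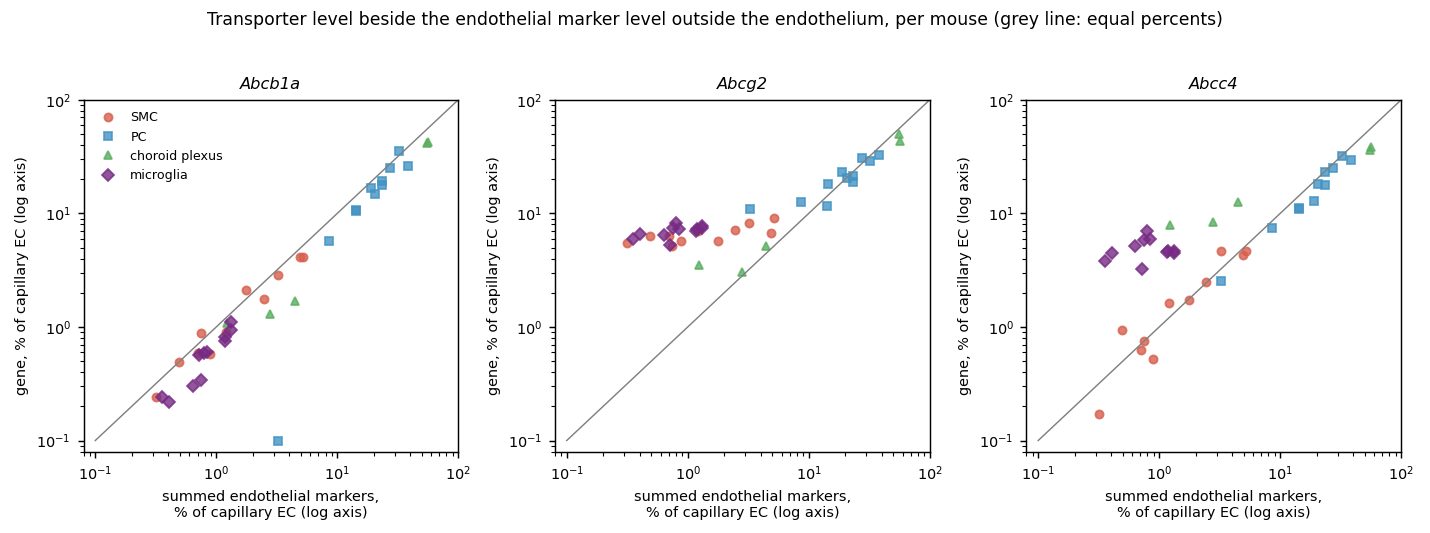
Level of Abcb1a, Abcg2 and Abcc4 in SMC, PC, choroid plexus and microglia of each mouse, as a percentage of the capillary level (vertical), against the summed endothelial markers of the same cells, as a percentage of their capillary level (horizontal), on log axes, with values of 0 drawn at 0.1 and a grey line of equality. Abcb1a lies near or under the line, and Abcg2 in SMC (5.21% to 9.20%) and microglia (5.31% to 8.22%) lies above it.

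Microglia differed from capillary EC in all 8 genes, where 87.6% of all genes were called (medians −1.13 and −0.07). Abcb4 was higher by 4.79 ± 0.154 (adjusted p = 3.22e-16), Abcb1b by 4.08 ± 0.101 (5.7e-18), Abcc1 by 2.21 ± 0.083 (3.53e-15) and Abcc5 by 1.52 ± 0.052 (8.03e-16). Abcb1a was lower by −7.42 ± 0.211 (4.79e-17), Abcc6 by −6.36 ± 0.165 (1.21e-17), Abcc4 by −4.30 ± 0.092 (8.55e-19) and Abcg2 by −3.77 ± 0.071 (2.16e-19). Among the classes compared, the 2 P-glycoprotein genes thus had their highest levels in different cell types, Abcb1a in capillary EC and Abcb1b in microglia. With endothelial markers at 0.863% of the capillary level in microglia, Abcb1a stood at 0.589% and was above them in 0 of 11 mice, whereas Abcg2 at 6.96% (5.31% to 8.22%) and Abcc4 at 4.91% were above them in 11 of 11. In the other direction, microglial markers stood at 3.24% of their own level in capillary EC and 3.12% in arterial EC, while Abcb1b stood at 6.42% and 18.5%, above them in 11 of 11 mice in each, and Abcb4 at 4.06% in capillary EC, above them in 7 of 11.

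Abcb1b and Abcb4 carry a limit that the others do not. Of the words of 50 bases in the last 1000 bases of their transcripts, where 3' reads fall, 21.8% of those of Abcb1b (248 of 1140) and 6.41% of those of Abcb4 (122 of 1902) also occurred in another gene, mostly Abcb1a (237 and 111), and none did for the other 6 genes. Reads from those stretches cannot be assigned to 1 gene, so the values of Abcb1b and Abcb4 are less certain.

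The genotypes were compared in each class with the same test, R182C-TgN3 against control mice. The groups differed in transgenic line and human NOTCH3 level as well as in the variant, so these cannot be told apart. No transporter was called in any of the 8 classes or in all EC together, in 56 tests (8 genes in capillary EC and in all EC, 7 in arterial EC, venous EC and microglia, 5 in fenestrated EC, SMC and choroid plexus, and 4 in PC), by edgeR or by DESeq2, and 0 reached an unadjusted p below 0.05 in edgeR. The share of all genes called was 0% in 7 of these 9 comparisons, 0.0112% in SMC and 0.0206% in PC (1 gene each). Over all genes, 10 (choroid plexus) to 234 (venous EC and SMC) had an unadjusted p below 0.05, and DESeq2 called 0 genes in 7 comparisons, 1 in SMC and 2 in PC. The smallest adjusted p of a transporter was 0.999.

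The intervals say how large a difference these mice could have hidden. In capillary EC the log2 difference was 0.01 for Abcb1a (95% interval −0.16 to 0.18), 0.06 for Abcg2 (−0.14 to 0.26) and 0.12 for Abcc4 (−0.16 to 0.40), and it was −0.03 for Abcc5 (−0.21 to 0.15). For the rarer Abcb1b (−0.01, −0.46 to 0.43) and Abcb4 (0.04, −0.93 to 1.01) the intervals were wider. The smallest unadjusted p values were 0.053 for Abcc6, at 42.1, 44.7, 35.4, 40.1, 40.4 and 38.1 CPM in R182C-TgN3 mice 1 to 6 and 50.2, 38.2, 52.3, 44.8 and 44.4 CPM in control mice 1 to 5 (−0.15, −0.30 to 0.00), and 0.0562 for Abcc1, at 6.81, 7.05, 8.51, 8.23, 9.30 and 7.84 CPM against 7.67, 6.45, 7.46, 6.51 and 6.57 CPM (0.24, −0.01 to 0.49). Both pairs of ranges overlapped. In arterial EC the differences were 0.05 (−0.18 to 0.27) for Abcb1a and 0.06 (−0.16 to 0.29) for Abcg2, and in microglia −0.08 (−0.34 to 0.18) for Abcb1b and −0.18 (−0.45 to 0.09) for Abcb4. The precision was poor in PC (Abcb1a −0.22, −1.18 to 0.74) and poorest in choroid plexus (Abcb1a −0.48, −5.06 to 4.11). In SMC, Abcc5 measured −0.28 (−0.61 to 0.05) and Abcg2 0.18 (−0.15 to 0.50).

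Each age held 2 batches. Both batches at 6 months held both genotypes, but at 9 months R182C-TgN3 mouse 3 was alone in its batch. The 9-month differences are therefore less balanced over batches. Within an age, the capillary difference of Abcb1a was 0.01 at 6 months and 0.01 at 9 months, that of Abcg2 0.03 and 0.14, that of Abcc4 −0.09 and 0.39, that of Abcc6 −0.22 and −0.07 and that of Abcc1 0.26 and 0.25, none of them called. With batch as a covariate the differences of Abcb1a and Abcg2 were −0.01 and 0.07. Whether the genotype difference itself changed between 6 and 9 months was tested as an interaction, in 54 tests of transporters over 8 groups of cells, and 0 were called by edgeR, which was the tool run for it (smallest adjusted p = 0.723). Of all genes, 0% were called in each group except PC (0.682%, 42 of 6162 genes). Without adjustment, 3 of these 54 tests fell below 0.05, a number that chance alone can give. They were those of Abcb1b in capillary EC (difference of log2 differences 0.99 ± 0.343) and of Abcc4 in all EC (0.59) and in arterial EC (0.61). All EC holds the arterial cells, so these Abcc4 tests are not independent. It also holds the endothelial cells of no subtype (mean Abcc4 274 CPM). Among them, a cluster of 1676 cells led by Acta2 and Tagln had 1358 from R182C-TgN3 mouse 4. The part of these cells was not tested. The capillary difference of Abcb1b was −0.50 at 6 months and 0.49 at 9 months. Between classes, 0 of 45 tests of whether the genotype difference varied were called and 0 had an unadjusted p below 0.05, again with 0% of all genes called, and the smallest p was 0.0555 (Abcc1, arterial minus capillary EC, −0.36).

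**Figure D5:**
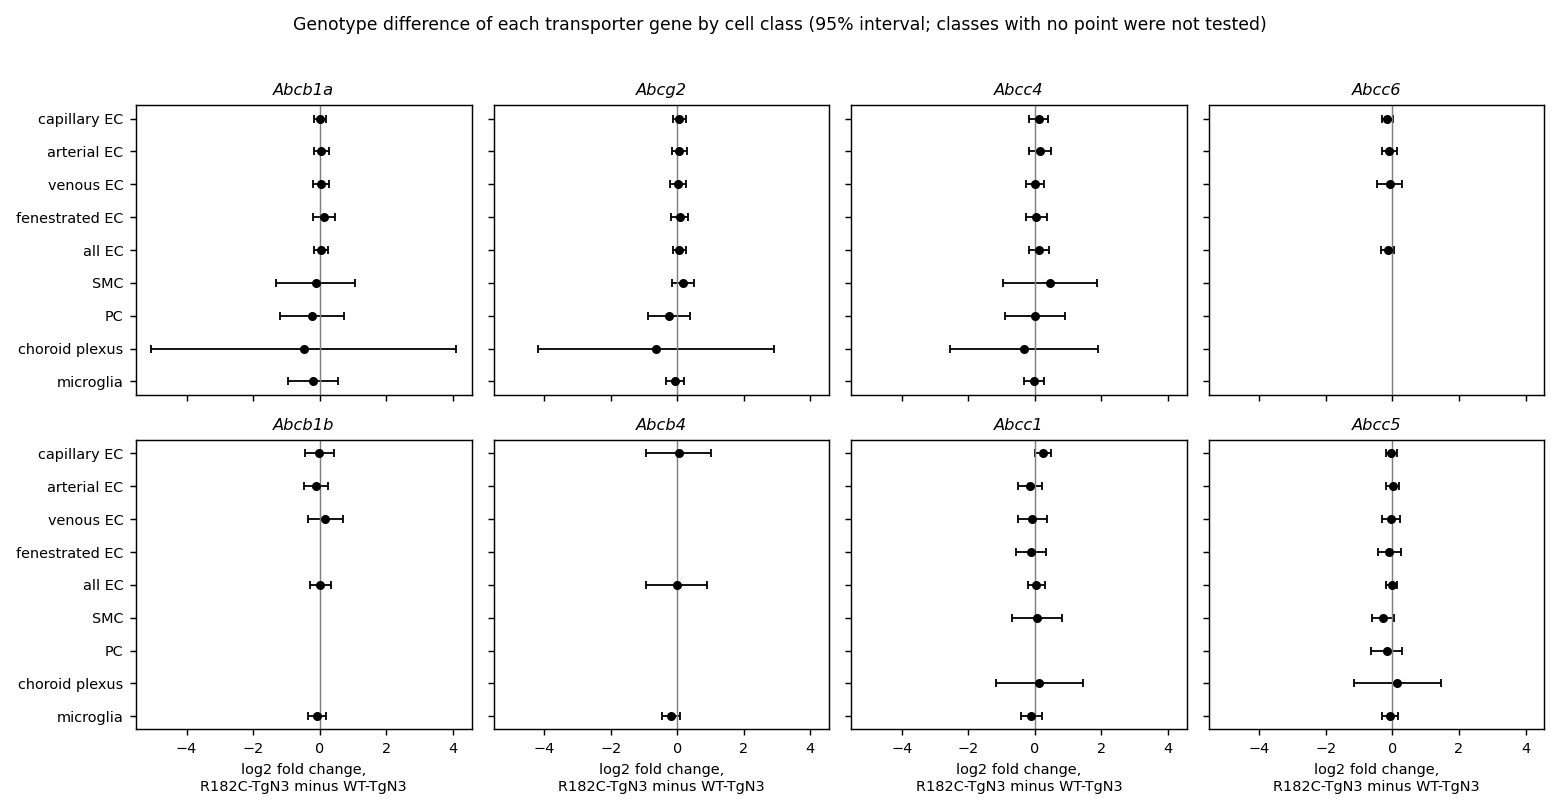
Log2 difference between R182C-TgN3 and WT-TgN3 mice for each gene in each group of cells in which it was tested, with 95% intervals. Each interval covers 0 (Abcb1a in capillary EC 0.01, −0.16 to 0.18), and those of choroid plexus are the widest.

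Some levels differed between the 6-month and the 9-month mice, and are given without a test. These are examples picked from the levels of all transporters in all classes. The share of all genes with such a gap is not given. Since no batch held both ages, a gap between ages cannot be told apart from one between batches. Abcb4 in capillary EC was 1.99 to 3.85 CPM at 6 months and 0.792 to 1.43 CPM at 9 months, and Abcc1 in microglia 33.8 to 47.0 CPM against 25.1 to 31.1 CPM, with no overlap in either. Abcg2 in microglia nearly separated (64.1 to 84.8 against 53.9 to 64.5 CPM). Microglial markers in capillary EC stood at 2.61% to 5.73% of their own level at 6 months and 1.76% to 4.80% at 9 months, and endothelial markers in PC at 18.9% to 38.3% and 3.25% to 23.3%. Abcb1a in capillary EC showed no such gap, with means of 1685 and 1663 CPM.

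The other ABC genes and the partners of these pumps were counted in lists chosen with earlier results of these data known. Of 44 other ABC genes, 23 were tested between arterial and capillary EC, with 7 higher and 6 lower, and 23 between venous and capillary EC, with 7 higher and 5 lower, where 59% and 51.5% of all genes were called, so the shares of this list were near the background. In arterial EC, Abcg1, a cholesterol exporter, was lower (2.29 against 17.0 CPM, log2 difference −2.76, adjusted p = 3.4e-14), and in venous EC Abca1, the cholesterol and phospholipid exporter that loads apolipoprotein A-I, was higher (99.98 against 56.3 CPM, 0.86). Abcg3 (0.85) and Abca5 (0.81) were higher in arterial EC, and Tap1, a subunit of the peptide transporter of antigen presentation, was higher in venous EC (0.61) and Abca7 lower (−0.61). Of 18 genes for transcription factors and receptors that regulate transporters, 15 were tested, with 6 higher and 7 lower in arterial (59% of all genes called) and 8 higher and 4 lower in venous EC (51.5%). Esr1, the oestrogen receptor, was higher in venous (42.4 against 8.43 CPM, 2.35) and arterial EC (16.3 CPM, 0.96), Ahr, the receptor for dioxin-like compounds, was higher in venous EC (47.9 against 15.9 CPM, 1.59), and Tcf7 was lower there (−0.95). Ppara (−1.63) and Hif1a (−0.95) were lower in arterial EC. Of 10 carriers that take up organic anions, 7 were tested, with 2 higher and 3 lower in arterial (59% of all genes called) and 1 higher and 3 lower in venous EC (51.5%). Slc22a8, the organic anion transporter OAT3, was lower in both (91.2 and 179 against 327 CPM), Slco1c1, a thyroxine carrier of the barrier, was lower in venous EC (444 against 1385 CPM, −1.63), Slco2b1 was lower in arterial EC (−1.38), Slco3a1 was higher there (17.3 against 0.57 CPM), and Slc22a5 was higher in venous EC (0.89). In microglia, 8 of 26 other ABC genes tested were higher and 13 lower than in capillary EC (87.6% of all genes called), and in PC 2 of 15 regulators were higher and 12 lower (50.3%). None of the genes of the 3 lists was called between genotypes in any class.

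The genes whose pattern was most like each transporter were named by Pearson's r of log2 (CPM + 1) over 82 sums of a class in a mouse, among 12216 genes. These correlations are descriptions, since the sums share libraries and cell classes. Abcb1a was closest to Mecom (0.986), Itm2a (0.970) and Slco1a4 (0.967), Abcg2 to Dnm3 (0.963), Col4a3bp (0.962) and Rnf125 (0.958), Abcc4 to Tspan5 (0.970), Thsd1 (0.959) and Layn (0.958), and Abcc6 to Tbx1 (0.946), Hcn2 (0.945) and Cldn5 (0.941). Abcb1b was closest to Arpc2 (0.844), Pfkfb3 (0.836) and Pabpc1 (0.834), Abcb4 to Gm49662 (0.910), Gm43821 (0.893) and Tifab (0.889), Abcc5 to Epb41l2 (0.907), Zfp62 (0.867) and Usp24 (0.865), and Abcc1 to Slc23a2 (0.771), Hspa5 (0.746) and Pdia3 (0.733). Among the transporters, Abcb1a and Abcg2 had r = 0.929 over all sums and 0.839 over the 33 sums of capillary, arterial and venous EC. Over the same 33 sums Abcb1a and Abcc4 had 0.455 (0.915 over all), and Abcb1b and Abcg2 had −0.72. Abcb1b and Abcb4, both led by microglia, had 0.708 over all sums and −0.18 within these endothelial sums.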

How the data were processed

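Single-cell 3' libraries of brain vessel cells from 11 mice were analysed (6 R182C-TgN3 and 5 WT-TgN3), each mouse being 1 replicate. The deposited matrices hold UMI counts per gene and barcode, which the authors made with Cell Ranger 7.0.0 on the mm10 transcriptome with human NOTCH3 added. The study left 1 control library out of its own microglial analysis, which the sources used here do not name, and all libraries were kept. Barcodes were retained from 500 detected genes upwards and up to 10% mitochondrial UMIs, and doublets were removed by simulated-neighbour score (0.8% per 1000 barcodes). Cells were clustered per series (2000 variable genes without ABC genes, 30 components, 15 neighbours, Leiden resolution 1, igraph 0.11.9 and leidenalg 0.10.2), endothelial cells a second time, and clusters were named where at least 3 markers were detected.

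UMIs were summed per mouse and class (at least 20 cells) after removal of ribosomal, mitochondrial, Gm and Rik genes for testing, and tested with edgeR 4.0.16 (filterByExpr, TMM, quasi-likelihood, R 4.3.3), two-sided with Benjamini-Hochberg adjustment. Genotype fits had the mice as samples, and class fits had the mouse as a block. DESeq2 1.42.0, other filters, cell definitions, covariates and subsets of mice were alternatives. Intervals from counts cover counting error alone, and the total depth was 17550806 to 64215050 UMIs per library. Scripts were tested on simulated counts. The transporters and gene lists were chosen with earlier results of these data known. All 8 transporters are named, other list genes by the 3 largest called differences per list between arterial or venous and capillary EC, and like genes by the 3 highest correlations.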

Additional observations from a re-analysis of the deposited data

Results flagged for a closer look

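Groups of 4 to 10 mice were screened for a mouse far from the others of its genotype by Dixon's test, in 112 groups of 1 transporter in 1 class, and 9 held such a mouse. Chance alone gives about 5% of groups. In Abcb1b, R182C-TgN3 mouse 3 stood apart in arterial EC (16.8 CPM from 78 UMIs, against 10.1 to 12.4 CPM in the other R182C-TgN3 mice), R182C-TgN3 mouse 4 in fenestrated EC (20.5 CPM from 7 UMIs, against 5.23 to 7.32 CPM), R182C-TgN3 mouse 5 in PC (5.06 CPM from 1 UMI, against 0 in the others) and control mouse 3 in PC (13.3 CPM from 3 UMIs, against 0 to 3.45 CPM). In Abcb4, control mouse 3 stood apart in PC (4.43 CPM from 1 UMI, against 0). In Abcg2, R182C-TgN3 mouse 5 stood apart in microglia, at 84.8 CPM from 214 UMIs against 53.9 to 64.5 CPM. In Abcc5, the same mouse stood apart in SMC (62.7 CPM from 32 UMIs, against 26.4 to 35.8 CPM) and control mouse 3 in fenestrated EC (44.3 CPM from 24 UMIs, against 36.5 to 38.1 CPM). In Abcc6, R182C-TgN3 mouse 3 stood apart in fenestrated EC (2.44 CPM from 2 UMIs, against 0 to 0.747 CPM). R182C-TgN3 mouse 5 also had the highest Abcb1a and Abcg2 of its genotype in capillary EC (1981 and 1144 CPM) and the largest share of cells with a barcode listed in another library (9.70%).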

How the results depend on the processing

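The count of transporters called between genotypes was 0 in each class under each alternative that could be computed (DESeq2, DESeq2 size factors, no filter on low counts, all genes kept, sex or batch as a covariate, each age alone, 1000 genes or 20% mitochondrial UMIs as cell filters, doublets kept, doubled clustering resolution, a marker gate per cell, and shared barcodes left out, chosen after seeing the data) and 0 to 0 with each mouse left out. Mice with the same age and number in the labels did not deviate together in every pair (correlations from −0.201 to 0.886), so the numbers were not taken to pair the mice, and the fit with the replicate block also called 0 in each class. Between classes, the venous count went from 6 to 2 with doublets kept, the SMC against PC count from 4 to 2 with the marker gate and to 7 with no filter on low counts, and the choroid plexus count from 5 to 0 in control mice alone (2 mice). The sign turned with doublets kept for Abcb1a (0.0544, adjusted p = 0.430), Abcg2 (0.0416, 0.581) and Abcc4 (−0.0495, 0.586) in venous against capillary EC. The cause of these changes was not tested. With 1 mouse left out, the counts ranged from 3 to 5 in choroid plexus (3 without R182C-TgN3 mouse 2, R182C-TgN3 mouse 6 or control mouse 5), 5 to 6 in venous, 6 to 7 in PC, 7 to 8 in arterial, 6 to 6 in fenestrated EC, 8 to 8 in microglia and 4 to 4 in SMC against PC. PC could not be named with 20% mitochondrial UMIs or with doublets kept, and choroid plexus not with 1000 genes. The fit between genotypes in 9-month mice alone could not be made for choroid plexus. With doubled resolution or the marker gate, not every group of cells could be compared between genotypes. Under another cell filter or class definition 19 levels moved by more than the spread between mice, as did 93 of 128 shares of cells when thinned to 1000 UMIs or not at all. PC sums limit the depth most, since 3 UMIs there amount to 3.80 to 42.8 CPM.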

Other observations

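UMIs of the transporters were also counted in cells outside the classes compared above. Among 323 cells that resembled T and natural killer cells, Abcb1b was detected at a pooled 49.4 CPM (84 UMIs, 27.0 to 88.1 CPM over 7 mice), overlapping the microglial range. The 82 fibroblast-like cells held Abcg2 at 143 CPM and Abcc5 at 99.6 CPM, and 1 mouse alone gave 20 or more of them. An endothelial cluster of 236 cells led by Meis2 and Plvap, of which 221 came from control mouse 5, held Abcg2 at 872 CPM, close to its capillary mean, beside Abcb1a at 102 CPM, within its fenestrated range. It rests on 1 library. Its cells were named endothelial, so they entered the second clustering of endothelial cells and were counted in all EC. Of the venous clusters, 1 of 488 cells led by Lcn2 and Ackr1 (median 924.5 UMIs) had Abcb1b at a mean of 37.1 CPM in the 4 mice with enough cells (12.7 to 64.0 CPM from 20 UMIs in all), against 8.73 CPM in the other (2246 cells, 11 mice), with overlapping ranges. These mice, R182C-TgN3 mice 4, 5 and 6 and control mouse 3, were those whose libraries shared the most barcodes (158 to 350 per pair). In the 3 microglial clusters, Abcc5 measured 85.4, 129 and 148 CPM. Of the 588 cells of the smallest of these clusters (median 2145.5 UMIs), 386 came from control mouse 2. Of the 2012 cells of the next, 938 came from R182C-TgN3 mouse 1. The part of library and depth in these levels was not tested.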
